A study of Mus musculus with 2 samples.

Results

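Among leukocytes of COX-deficient melanomas, 441 of 10363 cells carried a combination of transcripts led by Retnla, Lyz1, Aldh1a2, Ear2 and Fcrls, and these cells are described here. A cell was counted when it held at least 1 UMI (unique molecular identifier, 1 counted transcript molecule) in at least 4 of 8 genes, namely Retnla, Lyz1, Aldh1a2, Cd226, Ear2, Gfra2, Fcrls and Upb1. It also had to hold 0 UMIs of Mmp13, Lyve1, Cdh1, Ace, Cd3e and Ncr1. The rule kept 188 of 5504 control cells and 253 of 4859 NK cell-depleted cells. Values of these 14 genes chose the cells, so they are given below as a description only.

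Live CD45+ leukocytes had been sorted on day 4 from Ptgs-deficient, Braf-mutant melanomas grown in C57BL/6 hosts 8 weeks old. Control hosts were untreated, and NK cell-depleted hosts received 200 µg of anti-NK1.1 and 30 µg of anti-asialo GM1 on days 0 and 2, both directed at NK cell surface molecules. Ptgs genes encode the COX enzymes, which make prostaglandins, and both groups carried the same tumor cells. Their genotype label reads wild-type while the titles and the series design name a knockout, a conflict that touches both groups alike. Tumors of a group were pooled before the sort, and parental melanoma cells were spiked into both samples. Each group was thus 1 library, no difference below has a replicate check, and none was tested. Parentheses give exact 95% intervals for counting error alone, which hold nothing of the variation from tumor to tumor. For transcript levels they treat each UMI as independent, so variation from cell to cell is left out as well.

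Retnla encodes RELMα, a secreted protein that macrophages make in response to IL-4 and IL-13 through STAT6. Macrophages that carry RELMα, CD226 and MHC class II are known from body cavities and connective tissues, where they are replenished by blood monocytes, in contrast to resident cells marked by Lyve1, Timd4 or Gata6. Aldh1a2 makes retinoic acid from retinal, Lyz1 is a lysozyme that degrades bacterial walls, and Ear2 is a ribonuclease of the eosinophil-associated family. Cd226 is an activating receptor for nectin family ligands, Gfra2 is the co-receptor for neurturin, Fcrls is an Fc receptor-like scavenger receptor, and Upb1 acts in the breakdown of pyrimidines.

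The upstream sequences of 4 genes are shown because Retnla, Lyz1 and Ear2 define the cells and Il6 ranked first among the genes not used to choose them, by the lower of its ratios over other cells in the 2 libraries. Each runs from 250 bases before the RefSeq start to 50 bases after it, on the build GRCm38.p6, and is written 5′ to 3′ on the strand of the gene. The windows are chr16:48842359-48842658 (+) for Retnla, chr10:117292819-117293118 (-) for Lyz1, chr14:44102404-44102703 (+) for Ear2 and chr5:30012864-30013163 (+) for Il6. Capitals mark matches on either strand to 4 motifs, which did not overlap. These were TTC and GAA with 4 bases of any kind between them (STAT6), TTGCNNAA (C/EBP), GGG, NN, TT, N and CC in a row (NF-kB) and TGANTCA (AP-1), where N is any base.
Retnla: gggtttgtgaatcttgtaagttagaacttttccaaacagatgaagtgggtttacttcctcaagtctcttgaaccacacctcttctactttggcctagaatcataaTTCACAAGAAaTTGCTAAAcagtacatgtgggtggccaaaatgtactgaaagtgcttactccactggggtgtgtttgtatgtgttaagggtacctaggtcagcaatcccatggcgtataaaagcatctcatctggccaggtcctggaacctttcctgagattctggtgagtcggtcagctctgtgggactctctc
Lyz1: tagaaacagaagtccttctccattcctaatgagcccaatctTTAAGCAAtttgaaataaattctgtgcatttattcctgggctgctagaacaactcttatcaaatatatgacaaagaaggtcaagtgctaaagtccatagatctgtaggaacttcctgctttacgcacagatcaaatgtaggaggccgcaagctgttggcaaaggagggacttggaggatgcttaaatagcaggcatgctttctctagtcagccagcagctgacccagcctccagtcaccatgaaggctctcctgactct
Ear2: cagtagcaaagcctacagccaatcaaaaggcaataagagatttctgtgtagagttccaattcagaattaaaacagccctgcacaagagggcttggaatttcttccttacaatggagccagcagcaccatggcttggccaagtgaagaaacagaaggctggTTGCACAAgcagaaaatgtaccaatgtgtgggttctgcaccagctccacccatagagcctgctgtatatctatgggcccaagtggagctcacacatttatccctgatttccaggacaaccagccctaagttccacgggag
Il6: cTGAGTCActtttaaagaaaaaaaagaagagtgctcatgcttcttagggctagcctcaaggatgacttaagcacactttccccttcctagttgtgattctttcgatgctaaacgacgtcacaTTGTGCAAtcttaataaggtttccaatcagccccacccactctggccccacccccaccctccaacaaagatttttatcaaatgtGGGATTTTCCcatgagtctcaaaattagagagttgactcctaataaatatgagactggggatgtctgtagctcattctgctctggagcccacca
Retnla held the STAT6 letters TTCACAAGAA with their first base at -145 and, at -134, the C/EBP letters TTGCTAAA (-1 is the base before the start). Lyz1 held TTAAGCAA at -209, a C/EBP match on the reverse strand, and Ear2 held TTGCACAA at -90. Il6 held an AP-1 match at -249, a reverse C/EBP match at -128 and an NF-kB match at -44. Among all 32851 promoters of this length, 6.95% held the STAT6 letters, 10.8% those of C/EBP, 4.79% those of NF-kB and 7.81% those of AP-1. Of the 6 marker genes with a listed promoter, 3 held a C/EBP match (Retnla, Lyz1 and Ear2), 1 a STAT6 match (Retnla) and 1 an NF-kB match (Upb1). Such matches are letters in a window and no evidence of a bound factor.

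The cells were among the deeper ones of both libraries. Their median was 10209.5 UMIs and 2972.5 genes in control and 11160 UMIs and 3151 genes in NK cell-depleted, against 4318 and 5156 UMIs over all cells. Since a deep cell more readily shows 4 genes, depth and membership moved together. In all, 15.4% of the control and 20.9% of the NK cell-depleted Retnla cells lay above the authors' upper limits (15000 UMIs or 4000 genes), against 3.85% and 7.26% of all cells. Mitochondrial UMIs had medians of 3.06% and 3.97%. Doublet scores in the top 8% were found for 19 control (10.1%) and 28 NK cell-depleted Retnla cells (11.1%), against 7.5% and 6.92% of all cells. The libraries shared 7 cell barcodes, none of them among the Retnla cells.

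The number of marker genes per cell ran on without a gap between Retnla cells and the rest. Among cells with none of the 6 excluded genes, 109 control and 105 NK cell-depleted cells had 3 markers, 71 and 77 had 4, and 2 and 17 had all 8. Just inside the threshold, cells with 4 markers held 6265 and 4395 CPM of Retnla (UMIs of the gene per 1000000 UMIs) in control and NK cell-depleted. Just outside it, cells with 3 markers held 1551 and 1357 CPM. The excluded genes removed 19 of 207 control and 39 of 292 NK cell-depleted cells, and 18 of the latter carried Lyve1.

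**Figure D1:**
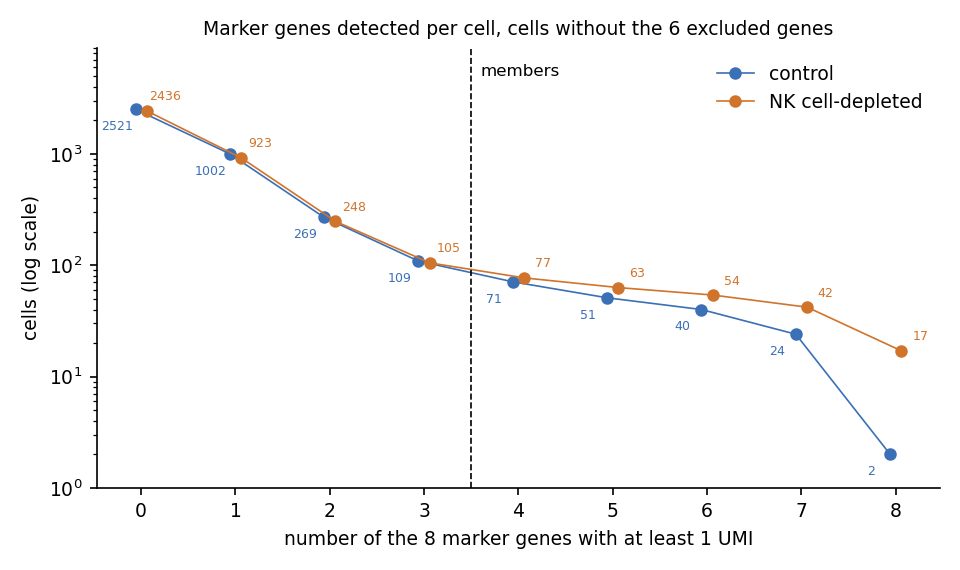
Number of cells (log scale) by how many of the 8 marker genes had at least 1 UMI, among cells with 0 UMIs of the 6 excluded genes. Counts run down without a gap from 2521 control and 2436 NK cell-depleted cells with 0 markers to 2 and 17 cells with all 8, and cells right of the dashed line are those described here.

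Of the genes that chose the cells, Retnla was by far the most abundant. It had 22429 UMIs in control (11181 CPM) and 29590 in NK cell-depleted (10142 CPM), that is 82.2% and 79.1% of all Retnla UMIs of each library. A cell held a median of 48 and 56 UMIs, with 0 as the lowest and 850 and 1252 as the highest, and 89.4% (84 to 93.4) and 89.3% (84.9 to 92.8) of cells held at least 1. T cells, which should lack the gene, held a Retnla UMI in 6.94% and 2.42% at medians of 2299 and 2672.5 UMIs per cell, the level free RNA can give. With every cell thinned to 3000 UMIs, the shares were 80.3% and 79.5% in Retnla cells and 7.02% and 2.08% in T cells. The transcript was thus present in most members, over a wide range.

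Of the other markers, 2 were present in nearly every cell and 5 in a part of the cells. Fcrls was detected in 96.8% and 96.4% of control and NK cell-depleted cells (608 and 579 CPM), and Ear2 in 94.1% and 96.4% (981 and 939 CPM). T cells held an Fcrls UMI in 4.62% and 1.61% and an Ear2 UMI in 1.73% and 0.806%. Aldh1a2 was found in 51.1% and 53% of cells at 96.7 and 96.3 CPM, and in 0 of 173 control and 0 of 124 NK cell-depleted T cells. Gfra2 was found in 54.3% and 62.8% (96.2 and 102 CPM), Cd226 in 48.4% and 54.9% (78.3 and 92.5 CPM), and Upb1 in 22.3% and 30.4% (39.9 and 54.5 CPM). Cd226 was also present in 15.6% and 19.4% of T cells, which are known to use this receptor. Lyz1 was uneven, in 55.9% and 60.9% of cells but with medians of only 1 and 2 UMIs and maxima of 163 and 201.

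Lyz1 and Ear2 have close paralogs, so their counts are less certain. Lyz1 (chr10:117287797-117292868) and Lyz2 (chr10:117277331-117282321) are neighbors on the minus strand. In the last 500 bases of the transcript, which this 3′ assay reads, 11.8% of windows of 60 bases in Lyz1 were also found in Lyz2, and 29.9% of those in Ear2 in related Ear genes. Lyz2, the macrophage lysozyme, had 6089 and 5676 CPM in the Retnla cells, while Ear1 had 0 and 1 UMIs and Ear10 had 0 in both libraries. Retnla, Aldh1a2, Gfra2, Fcrls and Upb1 shared no such window with another gene, and Cd226 was not compared.

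The label of these cells as macrophages was checked against marker lists. At least 3 of 12 pan-macrophage genes were seen in 94.7% and 93.7% of them. Csf1r, the receptor for the macrophage growth factor CSF1, was detected in 85.6% and 84.2%, and Adgre1, which encodes F4/80, in 69.1% and 73.5%. Fcgr1 and Mertk, which are often used to define tissue macrophages, were found in only 19.1% and 14.6% and in 24.5% and 22.9%. Genes of large body cavity macrophages were nearly absent, with 1 UMI of Gata6 in each library and 0 and 2 of Timd4. Of single genes that define dendritic cells, Flt3, the receptor of their growth factor, had 2 and 5 UMIs and the transcription factor Zbtb46 had 18 and 24. The whole dendritic lists, given below, were nonetheless above those of other monocytes and macrophages, which had been picked to hold no Flt3. Because macrophage-defining genes were split in this way, the cells are called Retnla cells here.

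Nearly every Retnla cell held H2-Aa, an MHC class II chain, the chemokine receptor Ccr2 and the mannose receptor Mrc1. H2-Aa was detected in 100% of control and 99.2% of NK cell-depleted Retnla cells, against 16.8% and 19.4% of T cells. Ccr2 was found in 96.8% and 97.2%, and Mrc1 also in 96.8% and 97.2%. In T cells these 2 genes were found in 53.8% and 35.5% (Ccr2, which T cells are also known to express) and in 13.3% and 14.5% (Mrc1).

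Markers of T cells, eosinophils, mast cells and fibroblasts were scarce, while those of NK cells and dendritic cells were above the level in other monocytes and macrophages. The 7 T cell genes summed to 4 and 6 UMIs, the 7 eosinophil genes to 9 and 9, the 6 mast cell genes to 1 and 2, and the 6 fibroblast genes to 5 and 2, with Prg2, Epx and Il5ra of the eosinophil list at 0 in both libraries. Red cell and platelet genes summed to 9 and 1 UMIs. Migratory dendritic cell genes summed to 19.9 and 41.1 CPM, against 10.8 and 20.5 CPM in other monocytes and macrophages. B cell genes summed to 27.4 and 55.9 CPM, below the 115 and 157 CPM of other monocytes and macrophages. NK cell genes summed to 57.3 and 32.6 CPM, mostly of Klrk1 (30.9 and 32.2 CPM), against 35.5 and 21 CPM in other monocytes and macrophages. Of the 7 melanoma genes, Mlana, Dct, Tyr, Tyrp1 and Sox10 were at 0, and the other 2, Pmel and Mitf, summed to 61.8 and 64.8 CPM. Genes of type 1 dendritic cells summed to 364 and 497 CPM, against 322 and 326 CPM in other monocytes and macrophages, of which Cd24a made up 253 and 383 CPM. At least 3 of these 7 genes were seen in 6.91% and 8.7% of Retnla cells, while the defining genes Xcr1 (0 and 1 UMIs) and Clec9a (1 and 0 UMIs) were at or near 0. Genes of type 2 dendritic cells, none at 0 in either library, summed to 266 and 227 CPM, against 242 and 184 CPM in the other cells, with at least 3 of 9 genes in 8.51% and 7.91% of Retnla cells. Neutrophil genes summed to 41 and 367 UMIs, or 20.4 and 126 CPM, against 85.7 and 126 CPM in the other cells. Those other cells had to hold 0 UMIs of Cd3e, Ncr1, Cd79a, Cxcr2, Flt3, Siglecf, Mlana and Pmel. Their sums for the lists of those lineages are thus in part set by that choice. At least 3 of the neutrophil genes occurred in 1 control and 3 NK cell-depleted cells. The part of such cells in the comparisons between libraries was not tested except as stated beside single genes.

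Clustering all 10363 cells placed 265 of the 441 Retnla cells (60.1%) in 1 cluster, numbered 14. This cluster of 358 cells was led by Retnla, Lyz1, Il6 and Aldh1a2, and 74% of its cells met the rule. Another 86 lay in cluster 4, led by Dcstamp, Cdh1, Slc7a2 and Mgl2, and 32 in cluster 5, led by Ccl8, Gas6 and Lyve1. Cluster 10 held 31 of them. It was also led by Retnla and Lyz1, with Ear2 among its leading genes, but was shallow, with a median of 1540 UMIs. Only 5.77% of its 537 cells met the rule. In cluster 8, led by the dendritic cell genes Cd209a and Flt3, lay 14. The share inside cluster 14 was 54.8% (47.4 to 62) of control and 64% (57.8 to 69.9) of NK cell-depleted Retnla cells. It followed the number of markers, from 19.7% and 37.7% of cells with 4 markers to 100% of cells with 8.

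Retnla cells in cluster 14 and elsewhere held different amounts of the marker transcripts. Retnla reached 14571 and 12776 CPM in cluster 14 and 6779 and 4842 CPM in the others. H2-Aa, which was not part of the rule, was alike in both, at 4218 and 5010 CPM inside and 4292 and 4684 CPM outside. C1qa was lower inside, with 349 and 599 CPM, than outside, with 1041 and 950 CPM. Complement C1q also split the cells as a whole: 59 control (31.4%) and 99 NK cell-depleted cells (39.1%) held 0 UMIs of C1qa, C1qb and C1qc together, while 77 (41%) and 77 (30.4%) held 10 or more. Median depth of the classes was 10074 and 10427 UMIs in control and 9514 and 12694 UMIs in NK cell-depleted. Retnla was higher in the class with 10 or more, at 16019 and 15449 CPM against 7566 and 5159 CPM in cells without C1q. Apoe, which carries lipids, went the same way, at 1320 and 937 CPM against 47.8 and 148 CPM. Ear2 went the other way, at 870 and 775 CPM against 1326 and 1093 CPM.

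**Figure D2:**
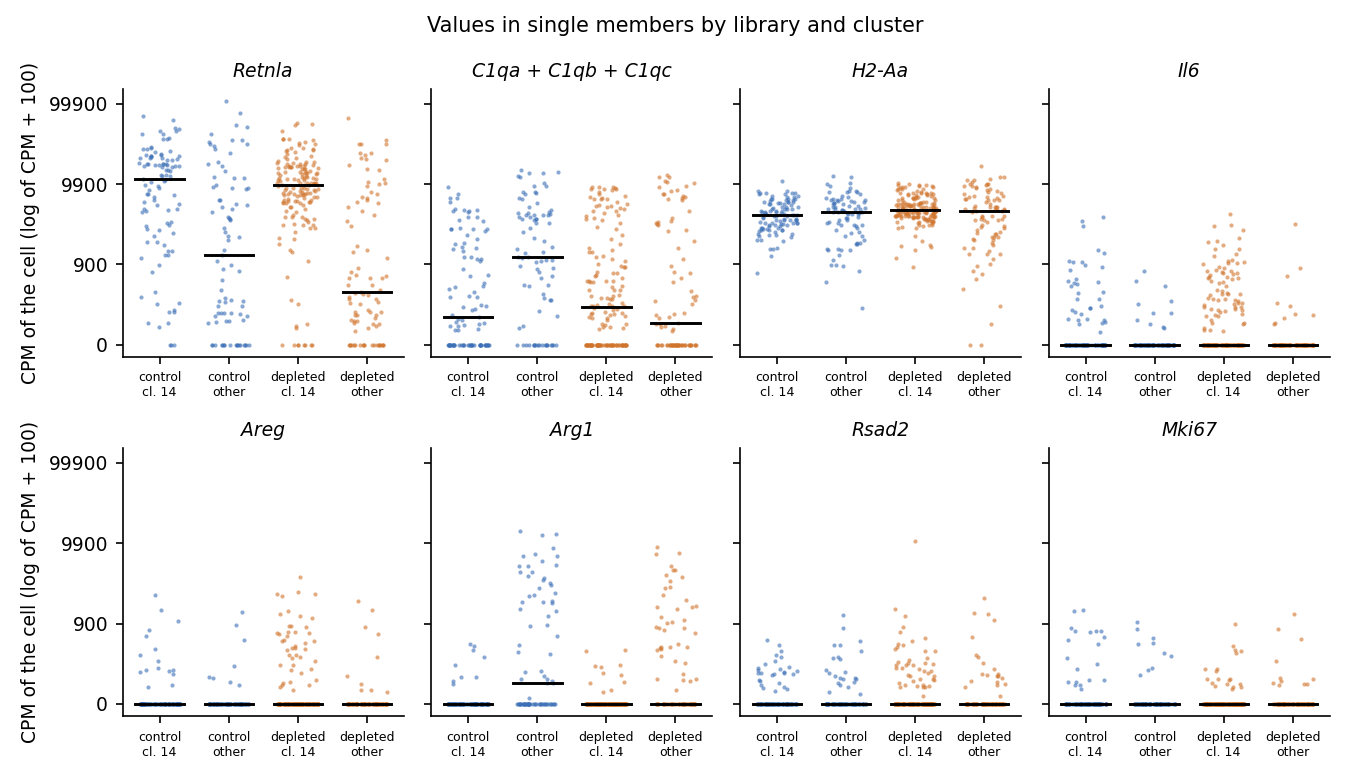
CPM of single Retnla cells (axis on a log scale of CPM + 100, each point 1 cell, black lines medians) for Retnla, summed C1q genes, H2-Aa, Il6, Areg, Arg1, Rsad2 and Mki67, by library and by place in cluster 14 or elsewhere. H2-Aa lies in a narrow band in all 4 sets, Retnla and C1q spread over the whole range, Arg1 lies mostly outside cluster 14, and for Il6, Areg, Rsad2 and Mki67 most cells are at 0.

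The Retnla cells were next set beside 3 similar groups of the same libraries. These were Lyve1 macrophages (55 control and 93 NK cell-depleted cells), Cdh1 macrophages (108 and 67 cells) and Ly6c2 monocytes (501 and 862 cells), each chosen by 2 or more genes among cells outside the rule. Lyve1 macrophages were picked by Lyve1 and at least 2 of Folr2, Ccl8, Cd163 and Cbr2. Cdh1 macrophages were picked by Cdh1, Mgl2 and at least 2 of Csf1r, C1qa, Adgre1 and Cd68. Ly6c2 monocytes were picked by Ly6c2 and Ccr2, with no UMI of C1qa, Cd3e, Ncr1 and Cxcr2. The level of these genes in a group they picked is thus in part set by that choice. All values here are a description and were not tested. Retnla had 1342 and 3801 CPM in Lyve1 macrophages, 7.71 and 123 CPM in Cdh1 macrophages and 121 and 79.3 CPM in Ly6c2 monocytes. Cells with enough markers that the rule left out for Lyve1 (2 control and 18 NK cell-depleted) could enter the Lyve1 macrophages. Their part in these values was not tested. Fn1, the matrix protein fibronectin, had 3832 and 4661 CPM in Retnla cells and from 486 to 1186 CPM in the 3 groups. Il6 had 147 and 236 CPM in Retnla cells, with 19.3 and 15.5 CPM in Ly6c2 monocytes and 0.964 and 28.9 CPM in Cdh1 macrophages.

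Other genes joined Retnla cells to one group or another. Fcrls and the growth factor receptor Fgfr1 were shared with Lyve1 macrophages, which held 362 and 317 CPM of Fcrls and 133 and 190 CPM of Fgfr1. Those macrophages held far more C1qa (3667 and 4489 CPM against 650 and 715 CPM) and Apoe (7400 and 5865 CPM against 594 and 386 CPM). Ear2 and Cd24a, a sialoglycoprotein, were shared with Cdh1 macrophages, at 287 and 245 CPM and at 156 and 232 CPM. H2-Aa lay between the 2 groups, at 4250 and 4902 CPM, with 6332 and 7050 CPM in Cdh1 macrophages and 1585 and 1578 CPM in Lyve1 macrophages. Ccr2 in Retnla cells (1488 and 1603 CPM) was below the 2228 and 2372 CPM of Ly6c2 monocytes. Ly6c2 itself, a surface marker of blood-derived monocytes, had 15 and 31.9 CPM against 2136 and 1774 CPM. Both genes had picked the Ly6c2 monocytes, so these differences are in part set by that choice.

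**Figure D3:**
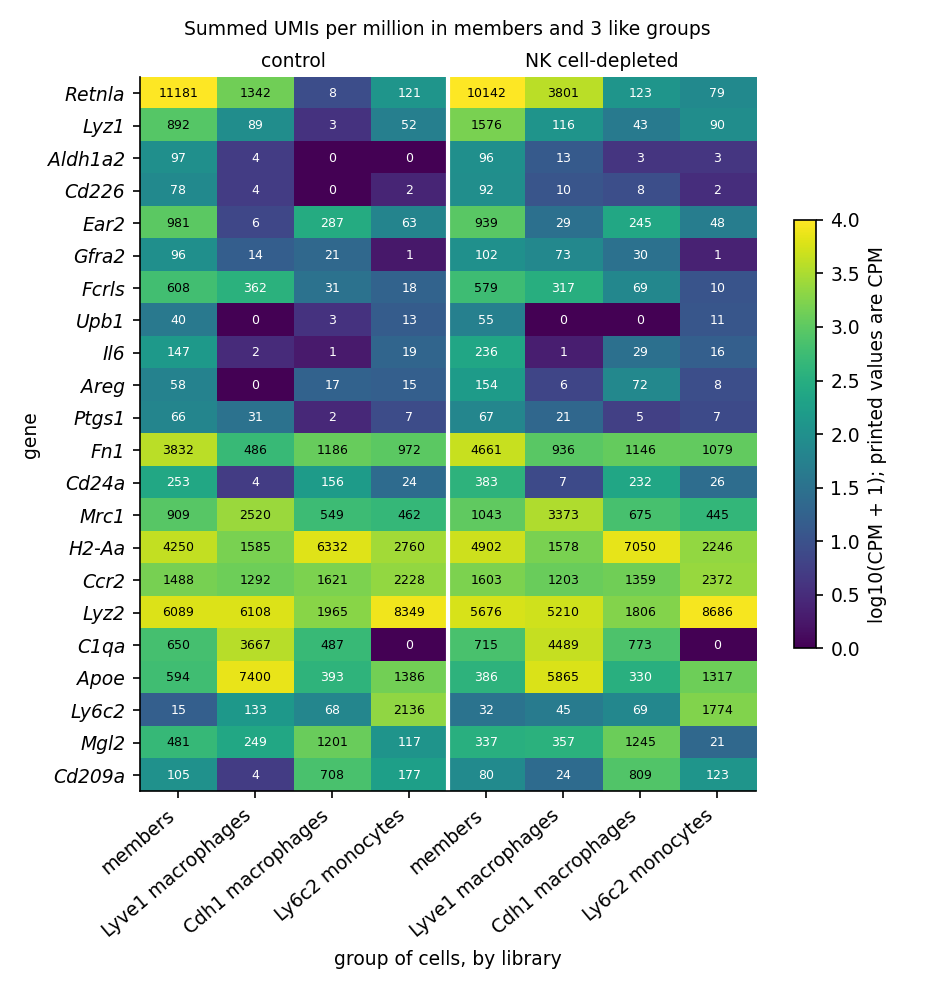
CPM of summed UMIs for 22 genes (rows) in Retnla cells and in Lyve1 macrophages, Cdh1 macrophages and Ly6c2 monocytes (columns), control left and NK cell-depleted right, with color on the scale log10(CPM + 1) and values printed as whole CPM. Retnla, Lyz1, Aldh1a2, Il6 and Fn1 are highest in the Retnla cells of both libraries, C1qa and Apoe in Lyve1 macrophages, and Ly6c2 in Ly6c2 monocytes. Genes that picked a group are high in it by choice.

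To place the rest of the transcriptome, Retnla cells were compared with 2910 control and 2610 NK cell-depleted other monocytes and macrophages. A gene was called when it was at least 2-fold higher or lower in both libraries. Of 8757 genes, 193 were higher (2.2%) and 424 lower (4.84%), and these include 8 and 4 of the genes that chose the cells, which leaves 185 and 420. Over all genes the median log2 ratio was -0.07 in control and -0.09 in NK cell-depleted. The Retnla cells had been taken out of the same cells, so these differences are a description. The other cells were themselves picked by at least 4 of 12 genes, among them Csf1r, Adgre1, Fcgr1, Ms4a7, Ly6c2, Ccr2, F13a1, Mrc1 and the C1q genes, so a lower value of these in Retnla cells is in part set by that choice. Depth per cell differed as well, with medians of 5306 and 5699 UMIs in the other cells.

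Il6, which encodes the inflammatory cytokine IL-6, ranked first among genes outside the rule by the lower of its ratios in the 2 libraries. It had 294 UMIs in 46 control cells and 688 UMIs in 85 NK cell-depleted cells, 46.4% and 68.5% of all Il6 UMIs of the libraries. Other monocytes and macrophages held 11.8 and 15.3 CPM, a log2 ratio of 3.64 and 3.94. The 5 cells with most Il6 held 41.5% and 27.6% of its UMIs, so a minority of cells carried it. Among T cells, 0% of control and 0.806% of NK cell-depleted cells held an Il6 UMI. Of the Retnla cells with Il6, 35 of 46 (76.1%) and 75 of 85 (88.2%) lay in cluster 14, against 47.9% and 51.8% of those without. The clusters were built from transcript values of these same cells and Il6 was among the leading genes of cluster 14, so this is a description only. Cells with Il6 were somewhat deeper, with medians of 11507.5 and 12870 UMIs against 9818.5 and 10112.5, and the part of depth was not tested. Areg, the epidermal growth factor ligand amphiregulin, was also called higher, at log2 ratios of 2.24 and 3.29, and occurred in 11 and 35 of the cells with Il6. Without the 5 leading cells of each library its ratio in control was 0.99, below the threshold.

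Receptors and surface proteins came next. Cd2, an adhesion receptor best known from T and NK cells, had 44.4 and 52.1 CPM against 3.79 and 3.19 CPM in the other cells. Fgfr1 had 184 and 178 CPM against 16.9 and 22.4 CPM, and Cd24a had 253 and 383 CPM against 30.9 and 44.9 CPM. Il1rl1, the receptor for the alarmin IL-33, had log2 ratios of 2.91 and 3.09. These genes were in a sizable share of cells, such as Il1rl1 with UMIs in 73 control and 114 NK cell-depleted cells. Pianp, a membrane glycoprotein, had log2 ratios of 3.07 and 3.39.

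Regulators of transcription and of the cytoskeleton completed the set of highest genes. Cebpe, a C/EBP factor known from granulocyte maturation, had 31.9 and 32.9 CPM against 3.1 and 3.73 CPM. Hr, a nuclear receptor co-repressor, had log2 ratios of 3.07 and 4.21. Rem1, a small GTPase, reached 4.25 and 3.26, Espn, an actin-bundling protein, 3.36 and 3.16, and Chn2, which inactivates the GTPase Rac, 3.17 and 3.07. Spink2, a protease inhibitor, had log2 ratios of 2.93 and 3.46. Ptgs1, named after its values were seen because its enzyme COX-1 makes prostaglandins, had 65.8 and 67.2 CPM against 12.6 and 12.3 CPM.

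The lowest genes in Retnla cells were largely those of monocytes and of other macrophages. The rule left out cells with Mmp13 or Ace. Cluster 1 was led by Mmp13 and Gpnmb, and cluster 7 by Ace, Chil3 and Cd177. Low values of Gpnmb, Chil3 and Cd177 are thus in part set by the rule. Ly6c2 had 30 and 93 UMIs (15 and 31.9 CPM) against 453 and 713 CPM. Chil3, a chitinase-like protein of monocytes and alternatively activated macrophages, had 5 and 50 UMIs against 119 and 399 CPM in the other cells. Gpnmb, a glycoprotein of lipid-laden macrophages, had 3 and 4 UMIs against 88.9 and 39.8 CPM. Ly6i and Ms4a4a had 0 UMIs in both libraries, and Cd177 had 0 and 1. The chemokine Ccl12 had 8 and 13 UMIs and the formyl peptide receptor Fpr2 had 1 and 4.

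**Figure D4:**
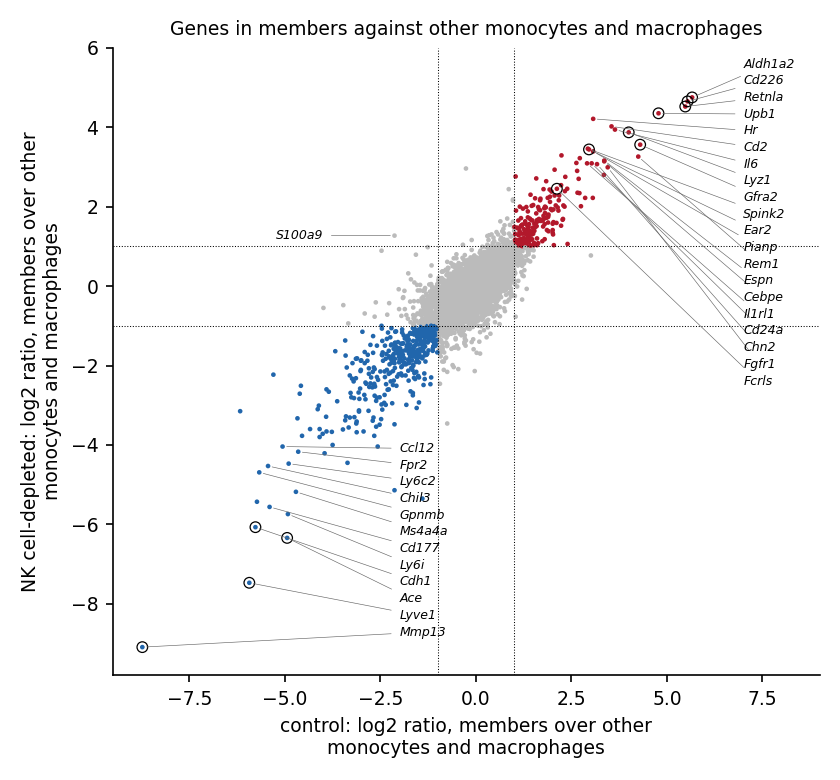
Log2 ratio of each gene in Retnla cells over other monocytes and macrophages, control on the horizontal and NK cell-depleted on the vertical axis, with 0.5 UMI added. Red points are at least 2-fold higher and blue points at least 2-fold lower in both libraries, dotted lines mark 2-fold, circles mark genes of the rule, and S100a9 is the labelled point with opposite signs.

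Gene lists of known pathways were counted next. Of 18 alternative activation genes, 15 could be compared, of which 3 were higher (Mgl2, Irf4 and Ccl17), 2 were lower (Chil3 and Tgm2) and 10 were not called. Mgl2, a galactose lectin, had 481 and 337 CPM against 210 and 117 CPM. Its log2 ratio in control was below 2-fold in cluster 14 (0.54), with 5 or more markers (0.60) and without the 5 leading cells (0.86). Cdh1 macrophages held 1201 and 1245 CPM of it, but Mgl2 was among the genes that picked them. The transcription factor Irf4 had 72.3 and 132 CPM against 26.6 and 41.3 CPM. Arg1, the arginase of alternatively activated macrophages, was not called, at log2 ratios of -0.67 and -1.08, nor were Stat6 (-0.06 and -0.18) and the IL-4 receptor chain Il4ra (-0.97 and -0.93). Ccl17, a chemokine for T cells, had 108 and 356 UMIs, of which 5 cells held 84.3% and 99.2%. Without these cells its log2 ratios turned to -1.55 and -3.88, and in cluster 14 alone they were -0.69 and -6.14.

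The genes that work with the markers were mostly not called. Of 7 retinoic acid genes compared, 0 were called, including the retinal reductase Dhrs3 at 209 and 226 CPM (log2 ratios of 0.23 and 0.25). The other retinal dehydrogenases Aldh1a1 and Aldh1a3 had 0 and 1 and 0 and 4 UMIs. Rarb, a retinoic acid receptor, had 6 UMIs in each library and Rara 111 and 173. Ret, Gfra1, Gfra3 and Gfra4, the signaling receptor and the sister co-receptors of Gfra2, had 0 UMIs in both libraries, as did Tigit and Cd96, which compete with Cd226 for ligands. Of those ligands, Pvr was lower, at log2 ratios of -1.34 and -1.22, and Nectin2 had 6 and 17 UMIs.

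Antigen presentation, complement and uptake genes were called in both directions. Among 13 MHC class II genes, 3 were higher, namely the peptide-loading chains H2-DMa (1.13 and 1.11), H2-DMb1 (1.17 and 1.16) and H2-DMb2 (1.84 and 2.64), and Cd40 was lower. The median of the list was 0.48 and 0.56, and H2-Aa lay at 0.54 and 0.60. None of 11 MHC class I genes were called, with medians of -0.20 and -0.30. Of 13 complement genes, 2 were higher (properdin, Cfp, at 766 and 800 CPM, and C4b at 101 and 113 CPM) and 6 were lower, among them C3 at log2 ratios of -3.30 and -3.31. Of 15 uptake receptors, 7 were lower, such as the scavenger receptors Stab1 (-3.40 and -3.28) and Msr1 (-2.17 and -2.49) and the Fc receptor Fcgr1 (-3.13 and -3.46). Cd163, a hemoglobin scavenger receptor, was the 1 higher, at 2.40 and 1.06, a call lost under 6 alternatives. Mrc1, which clears mannose-bearing glycoproteins, did not stand apart, at 0.05 and 0.01.

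Of 7 classical monocyte genes, 5 were lower and 2, Ccr2 and F13a1, were not called (0.06 and -0.18, and -0.02 and -0.16). Of 12 pan-macrophage genes, 3 were lower, Fcgr1, Ms4a7 and Apoe, and the list median was -0.89 and -0.72. Fn1 and Areg were the 2 higher of 21 growth factor and cytokine genes, of which 7 were lower, such as osteopontin, Spp1 (-4.55 and -3.77), and Thbs1 (-3.85 and -2.66). Lpl, the lipase that releases fatty acids from lipoproteins, was the 1 higher lipid gene, at 2412 and 3230 CPM against 864 and 1303 CPM. Of 18 chemokines, 7 were lower, such as Pf4 (-3.01 and -1.88).

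Cell cycle genes were called higher more often than any other list that was not used by the rule. Of 18 genes, 12 were higher and 0 lower, with list medians of 1.62 and 1.74. Mki67, a marker of dividing cells, had 96.2 and 45.9 CPM against 30 and 10.3 CPM in the other cells. It was detected in 30 of the 188 control and 30 of the 253 NK cell-depleted Retnla cells, with 45.1% and 65.7% of its UMIs in 5 cells. Dividing cells are known to hold more RNA, and the part of depth in their selection was not tested. Oxidative phosphorylation genes were not called, with a median of 0.27 and 0.20 over 32 genes, and type I interferon genes were called lower in 9 of 34 and higher in 0, with medians of -0.79 and -0.82.

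Control and NK cell-depleted tumors, which differ in the presence of NK cells, were compared first by the number of Retnla cells. Retnla cells made up 3.42% (2.95 to 3.93) of the control library and 5.21% (4.6 to 5.87) of the NK cell-depleted library. Control divided by NK cell-depleted, this was 0.656 (0.54 to 0.795). NK cells themselves filled part of the control library. With them left out of the denominator, the ratio was 0.734 (0.605 to 0.89). Among monocytes and macrophages, the shares were 6.07% and 8.84%, a ratio of 0.687 (0.566 to 0.833). For Retnla cells inside cluster 14 it was 0.561 (0.434 to 0.723). The share was thus lower in control beyond counting error in each case, and the spread between tumors is not known. Membership moved with depth, and the median over all cells was 4318 UMIs in control and 5156 in NK cell-depleted. Cluster 10, shallow and also led by Retnla and Lyz1, held 314 control and 223 NK cell-depleted cells, most of them outside the rule. The part of depth in shallow cells was not tested.

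Transcript levels in the Retnla cells were then compared between libraries. A gene was called when it differed at least 1.5-fold with an interval that left out 1. As this interval treats UMIs of the same cell as independent, a call can rest on few cells. Of 5652 genes, 178 were higher in control (3.15%) and 250 lower (4.42%), with a median log2 ratio of -0.05 over all genes. Of the 8 markers, only Lyz1 was called, with 1790 UMIs (892 CPM) in control and 4597 UMIs (1576 CPM) in NK cell-depleted, a ratio of 0.566 (0.536 to 0.598). Under the authors' upper limits it was 0.707 and no longer called. Retnla was at 1.1 (1.08 to 1.12), Aldh1a2 at 1 (0.832 to 1.21), Ear2 at 1.04 (0.985 to 1.11) and Fcrls at 1.05 (0.976 to 1.13). In the other monocytes and macrophages, the same ratios were 0.565 for Retnla, 0.534 for Aldh1a2, 1.46 for Ear2 and 1.32 for Fcrls, and the difference between both sets of cells was not tested.

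The interferon lists differed little. IFN-γ is a cytokine that NK cells release and macrophages respond to. Of 23 genes of this response, 0 were called and 16 had a log2 ratio above 0. Their median log2 ratio was 0.20 (0.11 for the same genes in other monocytes and macrophages). The summed UMIs of the whole list had a ratio of 1.03 (1.02 to 1.05), and in cells with 5 or more markers 0.996. This sum of 20588 and 19928 CPM was mostly MHC class II genes, among them H2-Aa (4250 and 4902 CPM) and H2-Ab1 (4670 and 4837 CPM). It therefore says little about the other genes of the list. Cxcl9, a chemokine induced by IFN-γ, had 0 UMIs in control and 8 in 2 NK cell-depleted cells, and Cxcl10 had 69.3 and 74.4 CPM. Cd74, the invariant chain of MHC class II, had 7004 and 5283 CPM, a ratio of 1.33 (1.3 to 1.36). Of 28 type I interferon genes, 1 was higher in control (Eif2ak2, 1.53) and 4 were lower (Rsad2, Cmpk2, Mx1 and Ifit1), with a median of 0.01. Rsad2, an antiviral enzyme, had 54.8 and 150 CPM, a ratio of 0.365 (0.294 to 0.451), but 1 NK cell-depleted cell held 45.4% of its UMIs there (and 43% of those of Ifit1), and under the authors' upper limits the ratio was 0.918.

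Il6, Areg and 4 genes of the TNF and NF-kB list were lower in control. Il6 had 147 CPM in control and 236 CPM in NK cell-depleted, a ratio of 0.622 (0.54 to 0.714). Within cluster 14 the levels were 232 and 327 CPM. Elsewhere they were 35.5 and 51.6 CPM, but from only 31 and 50 UMIs, of which 5 cells held 80.6% and 90%, and the share of cells with Il6 there was 12.9% and 11%. The ratio no longer reached 1.5-fold in cluster 14 (0.709), with 5 or more markers (0.704) or without the excluded genes (0.688). Areg had 58.3 CPM in control, with UMIs in 24 cells, and 154 CPM in NK cell-depleted, with UMIs in 54. Its ratio was 0.378 (0.306 to 0.464). Of 7 cancer-promoting (CP) factors, 4 were lower in control, Il6, Cxcl1 (51.8 and 108 CPM), Ccl2 (723 and 1141 CPM) and Ptgs2 (202 and 336 CPM), the gene of COX-2, with a list median of -0.66 (-0.29 in other monocytes and macrophages). Cxcl1 and Ccl2 recruit neutrophils and monocytes, and neither was called under the authors' upper limits (0.888 and 0.669). Of 21 TNF and NF-kB response genes, 4 were lower in control and 0 higher, among them Tnfaip3 (0.527), a brake on NF-kB, and the adhesion molecule Icam1 (0.653), and 2 of the 21 log2 ratios were above 0. The list median was -0.30, and -0.40 in the other monocytes and macrophages. Immediate early genes such as Nr4a1 (423 and 814 CPM) went the same way, with 4 of 18 lower.

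Further genes lower in control covered several functions. Thbs1, which encodes thrombospondin 1, had 64.8 and 172 CPM, a ratio of 0.377 (0.309 to 0.459), and the IL-1 receptor antagonist Il1rn had 192 and 341 CPM (0.565). Irf4 had 72.3 and 132 CPM, a ratio of 0.549, the co-stimulator Cd80 had 29.4 and 55.9 CPM (0.526) and the retinoic acid receptor Rarg 31.4 and 47.6 CPM (0.659). Cd5l, a scavenger protein of macrophages, had 39 and 150 UMIs (0.378), Arl5c, a small GTPase, 30 and 112 (0.39), and the transcript AC160336.1 117 and 522 (0.326). These calls were lost under some alternatives, at 0.668 for Cd5l under the authors' upper limits and at 0.59 for Arl5c and 0.72 for AC160336.1 in cluster 14. A few genes rested on single cells. Il10, an anti-inflammatory cytokine, had 8 UMIs in 3 control cells and 98 in 15 NK cell-depleted cells. Ccl22 had 10 and 270 UMIs, of which 255 lay in 1 NK cell-depleted cell, and its ratio of 0.0539 became 5.16 in cluster 14. S100a8 and S100a9, calprotectin genes of neutrophils, had 8 and 130 and 5 and 149 UMIs, with 94 and 108 in 1 cell each.

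Higher in control were cell cycle genes and Arg1. Of 16 cell cycle genes, 8 were higher in control and 0 lower, with a median of 0.59 (0.73 for the same genes in other monocytes and macrophages). Pclaf, a replication factor, had 106 and 38.4 CPM, a ratio of 2.77 (2.19 to 3.51), Birc5, which acts in cell division, had 51.8 and 19.9 CPM (2.61), and Mki67 had a ratio of 2.09 (1.67 to 2.63). Uhrf1 and Rrm2, which act in DNA methylation and nucleotide supply, had ratios of 2.37 and 2.24. The other genes of this rank were Ccdc34 (2.4), Hmgn2, a nucleosome-binding protein (2.09), and Atad2, a chromatin regulator (2.04). Arg1 had 682 and 271 CPM, a ratio of 2.52 (2.3 to 2.75), with UMIs in 53 cells of each library. It lay mostly outside cluster 14, at 1547 and 791 CPM against 16.8 and 12.8 CPM inside, where the ratio was 1.31 and not called. Ccl8, a chemokine of Lyve1 macrophages, had 132 UMIs in 7 control cells and 34 in 1 NK cell-depleted cell, a ratio of 5.65 (3.85 to 8.49), with 94.7% of the control UMIs in 1 cell. Without the requirement of 0 Lyve1 and the like it was 1.06.

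Oxidative phosphorylation genes were mostly above 0, and a few were called. Of 32 genes, 31 were above 0 and 4 were called higher in control (Cox5b, Ndufc1, Uqcrb and Cox7c), with a median log2 ratio of 0.39 and a summed ratio of 1.29 (1.27 to 1.31). Over all genes tested, 2482 of 5652 were above 0 and 178 (3.15%) were called higher in control. In the other monocytes and macrophages the median of the same 32 genes was 0.33. Glycolysis, with 1 of 15 genes higher in control (Eno1, 2), and hypoxia, with 3 of 17 (Fam162a, P4ha2 and Egln3), had medians of 0.18 and 0.16, against 0.42 and 0.35 in those other cells. Complement genes had 0 of 9 called and MHC class II genes 1 of 11, Cd80.

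**Figure D5:**
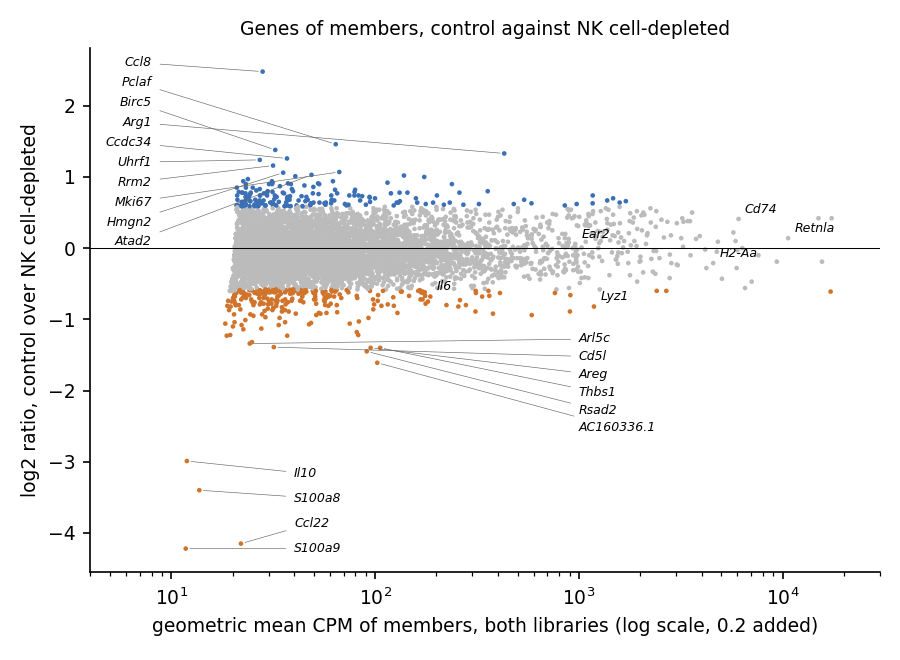
Log2 ratio of each gene in Retnla cells, control divided by NK cell-depleted (0.5 UMI added), against the geometric mean CPM of both libraries (log scale, 0.2 CPM added). Blue points are called higher in control and orange points lower, most genes lie near 0, and the 4 lowest points (S100a9, Ccl22, S100a8 and Il10) rest on few cells.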

How the data were processed

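Single-cell transcriptomes of CD45+ cells came from 2 droplet libraries, 1 per group, each from 16000 loaded cells (cDNA amplified for 11 cycles, index PCR for 14). The authors deposited UMI counts per gene and cell from Cell Ranger, release 3.0.2 per the file headers (the methods give a different one). The build is mm10 per the submitters' processing notes. The matrices list 31053 genes. For the 35 symbols listed more than once the first entry was used, and Clec7a and Mx2 were not used. The authors' table of log2 values (log2 of CPM + 1) was not used, because it leaves out cells above their upper limits, and 0 columns were without a sample.

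Cells with at least 500 UMIs, at least 200 genes and at most 10% mitochondrial UMIs were kept (5504 of 6115 and 4859 of 5536), with 30836363 and 33055233 UMIs and no upper limits. UMIs were summed per library and scaled to 1000000 (CPM). Log2 ratios had 0.5 UMI added. Genes needed 100 UMIs over both libraries, or, against other cells, 100 over both sets of cells in each library. Ratios carry exact conditional binomial and shares exact Clopper-Pearson 95% intervals. A count of 0 allows up to 3 counts. Other monocytes and macrophages were non-members with UMIs in at least 4 of 12 monocyte and macrophage genes and none of 8 genes of other lineages. For clusters, 2000 variable genes without the interferon lists gave 15 principal components, 20 neighbors and Leiden clusters at resolution 1 (scanpy 1.11.5, leidenalg 0.10.2, igraph 0.11.9, scikit-learn 1.9.0, numpy 2.4.6, scipy 1.17.1, python 3.11.15). Clusters were rebuilt here and are given by number and leading genes, and can for that reason differ from those of the study.

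Doublets were scored with Scrublet, which marked 0.0363% and 0.103% of cells and so has not worked here; its calls and the top 8% of its scores served as alternatives. The text names all genes of the rule, the 12 highest and 8 lowest genes over other cells, the 10 most different in each direction between libraries, and genes of preset lists, without mitochondrial, ribosomal and unnamed gene models. The members and lists were chosen with earlier results of these data known. Names of genes added after their values were seen are marked so. The calling procedure was tried on simulated independent counts without variation between cells. That trial cannot speak to calls that rest on few cells. Promoters come from RefSeq on GRCm38.p6. Gene positions and the transcript ends compared between paralogs come from GENCODE. Alternatives varied the number of markers, the excluded genes, depth (3000 UMIs per cell), upper limits, doublets, cell weights, scaling and minimum UMIs. The doublet score and cluster 14 alternatives were added after the data were seen.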

Additional observations from a re-analysis of the deposited data

Results flagged for a closer look

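S100a9, a gene of neutrophils, differed at least 2-fold between Retnla cells and other monocytes and macrophages in both libraries but in opposite directions, at log2 ratios of -2.13 in control and 1.27 in NK cell-depleted. The difference between the libraries was not tested. Control Retnla cells held 5 UMIs in 5 cells. NK cell-depleted Retnla cells held 149 UMIs in 7 cells, of which 1 cell held 108 and the next 21. The cell with 108 had 10200 UMIs in all, 4 of the 8 markers and at least 1 UMI of all 7 neutrophil genes.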

How the results depend on the processing

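No paired analysis was possible because each group was 1 library. The share of Retnla cells kept its direction under 10 alternatives, with ratios from 0.561 to 0.734. The alternative at 3000 UMIs used only cells of at least that depth. The part in cluster 14 (60.1%) was 45% with 3 or more markers and 75.8% with 5 or more. Genes higher in control (178) numbered 78 at 3000 UMIs per cell, 282 at a minimum of 50 UMIs and 116 without the 5 leading cells of each gene. Genes lower in control (250) numbered 117 at 3000 UMIs per cell. At 3000 UMIs fewer genes reached the minimum of 100 UMIs, and the part of this in the 2 lower counts was not tested. Some ratios also moved, such as Hmgn2 from 2.09 to 1.27. Genes higher than in other cells (193) numbered 112 at 3000 UMIs and 97 without leading cells. Genes lower (424) numbered 939 without leading cells, which only the Retnla cells lose by construction, and 659 in cluster 14.

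The summed IFN-γ ratio (1.03) was 1.05 with 3 or more markers, without excluded genes, at 3000 UMIs per cell and with TMM factors, 1.01 in cluster 14 and turned to 0.996 with 5 or more markers. The summed type I interferon ratio (1.09) was 1.29 under the authors' upper limits, 1.2 at 3000 UMIs, 1.16 as a mean over cells and without leading cells, and 1.05 in cluster 14. Single genes that turned were Retnla (1.1 between libraries, 0.997 with 3 or more markers), Ccl22 (5.16 in cluster 14) and Ccl17 over other cells, at -0.71 in control with 5 or more markers, at -1.55 and -3.88 without leading cells, and at -0.69 and -6.14 in cluster 14. The cause was not tested. Of 31 named calls between libraries, 17 were kept under the authors' upper limits and 14 at 3000 UMIs per cell. Of 38 named calls against other cells, 33 and 24 were kept. For several cell cycle genes the call was lost there while the ratio was as large, such as Pclaf at 4 and 4.44, since too few UMIs remained. With 1 library per group, no value separates tumors from the groups.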
